A study of Homo sapiens with 6 samples.

Results

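MYC, PVT1 and the genes of the MYC network were followed by chromatin accessibility in MM.1S cells, a line established from multiple myeloma, treated with CB-6644. The 9 members were chosen by name: the MYC gene, the neighbouring long noncoding RNA gene PVT1, the partner gene MAX, the antagonist genes MXD1, MXD4, MXI1, MNT and MGA, and MLX, a relative of MAX. The promoter of a gene was taken as 1000 bp on either side of its GENCODE release 44 transcript starts, and its locus as the gene body with 50 kb on each side. For MYC the locus was the 3 Mb interval from 126.5 to 129.5 Mb of chromosome 8 (hg38), which also holds PVT1. Merging all peaks of the 6 libraries that shared 1 bp or more gave 89196 regions, and 190 of them lay in the loci of the 9 members. Of these, 118 lay in the MYC interval and 72 in the loci of the other 7 genes, and 101 held a peak in all 6 libraries. The treated group was MM.1S exposed to 120 nM CB-6644 for 72 h, and the control group was MM.1S with DMSO, for which the labels give neither an amount nor a time. Each group had 3 libraries of one cell line, made from sorted live cells, so the p-values measure the spread between these libraries and not between patients. CB-6644 is an inhibitor of the ATPases RUVBL1 and RUVBL2, common subunits of several chromatin remodelers. The comparison asks whether the inhibitor opened or closed chromatin at these genes.

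MYC is a transcription factor that drives growth and ribosome production, and it binds DNA only as a dimer with MAX. The MXD proteins, MNT and MGA compete for MAX and, as dimers with it, repress many of the same genes, while MLX serves the parallel branch of the network that senses nutrients. The dimers read the E-box, of which CACGTG is the canonical form. In myeloma MYC is a frequent target of rearrangement, and the breaks and the enhancers they bring in are spread over the wide interval around MYC and PVT1. RUVBL1 and RUVBL2 bind MYC and are parts of the TIP60 complex, which also holds TRRAP. Copy number and rearrangements of the interval were not measured here.

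The measure was the fold enrichment of each peak over its local background, one value per peak and library, as the authors' peak caller gave it. A second measure was the percentile of the peak's −log10 p within its own list, where 100 is the strongest peak. The lists held 58563 to 71781 peaks with CB-6644 and 65569 to 79020 with DMSO and give no read totals, so a site without a peak was not detected rather than shown to be closed, and the depth is unknown. CB-6644 replicate 2 and DMSO replicate 1 had shortest peaks of 65 and 91 bp against 131 to 152 bp in the other 4 libraries. They are called short-fragment libraries, and the other 4 long-fragment libraries, after the width of the shortest peak alone, since fragment length itself was not measured here. At the strongest promoter regions of the 9 genes they had the highest fold of their group at 9 genes (CB-6644) and 8 genes (DMSO). Fold enrichment was tested with limma over the 42089 regions with a peak in all 6 libraries, on the log2 scale and after quantile normalization, and a region was called at an adjusted p below 0.05. Over the genome 0.321% of these regions were called higher with CB-6644 and 0.418% lower. With this grouping of the libraries, the fragment-length set, as a term in the fit, 4.22% were called higher and 6.10% lower. The plasma cell markers SDC1, IRF4, PRDM1, XBP1, TNFRSF17, CD38 and SLAMF7 all had a promoter peak in every library. Among markers of other cell types, MS4A1, CD3E, CD2 and LYZ had no promoter peak in any library, COL1A2 had one in 4 libraries, and PAX5, CD14 and COL1A1 had one in all 6.

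The promoters of all 9 genes were accessible with and without the inhibitor. Each had a promoter peak in every library, as did 66.2% of all protein-coding genes. No promoter of the 9 was called changed. Such calls were rare at promoters in general, with 11 higher and 9 lower of 14596 regions at protein-coding promoters with a peak in all 6 libraries. At the strongest promoter region of each gene the difference in log2 fold enrichment, CB-6644 minus DMSO, ran from -0.13 at MGA to 0.22 at MXI1, with a median of 0.09. The median over the regions at all protein-coding promoters was 0.08, where every such region counts and not only the strongest of each gene. The difference was above 0 at 7 of the 9 genes and below 0 at MYC and MGA. Of 14596 regions at protein-coding promoters, 10130 were above 0 and 4466 below. Adjusted p at the 9 genes ran from 0.592 to 0.862 (limma). With the fragment-length set as a term it ran from 0.132 to 0.759. By percentile of −log10 p the groups did not overlap at MYC and MGA, where every CB-6644 library was lower. Over the genome 24.6% of the regions with a peak in all 6 libraries were lower in this way and 5.61% higher, and the CB-6644 lists were shorter on average, whose part in this was not tested.

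**Figure D1:**
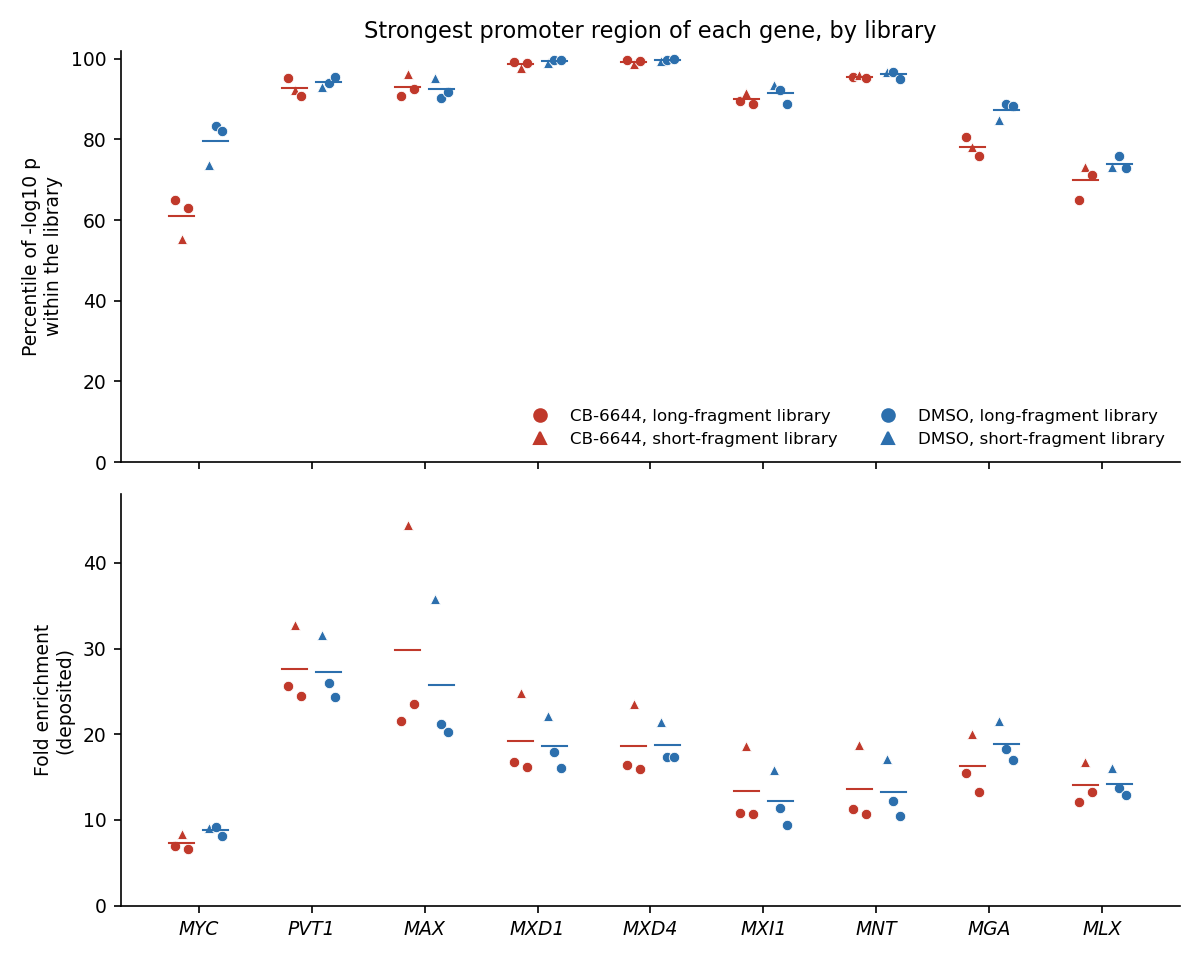
Percentile of −log10 p within the library (top, 0 to 100) and deposited fold enrichment (bottom) at the strongest promoter region of each gene. Each point is a library, red for CB-6644 and blue for DMSO, with triangles for the short-fragment libraries and a line at the mean of 3 libraries. MYC had the lowest folds of the 9, at 6.62 to 9.17, and its percentiles did not overlap between the groups, while MXD1 and MXD4 stood at or above the 97.8th percentile in every library.

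MAX, the dimerization partner shared by MYC and its antagonists, had a single promoter region, chr14:65102205-65103127, at the 5′ end of the gene and over an exon and UTR of it. Its fold enrichment was 21.6, 44.5 and 23.6 in CB-6644 replicates 1, 2 and 3 and 35.8, 21.2 and 20.2 in DMSO replicates 1, 2 and 3. The 2 short-fragment libraries were highest and the groups overlapped, with a difference of 0.21 ± 0.16 (SE; 95% interval -0.16 to 0.57; limma adjusted p = 0.592).

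Among the antagonists that carry a corepressor to MAX-bound sites, MXD1 and MXD4 had promoters among the strongest peaks of every list. The MXD1 region, chr2:69914287-69915301, lay 17 kb inside the GENCODE gene, at the RefSeq start 17421 bp downstream of the annotated 5′ end, and no region with a peak in all 6 libraries lay at the 5′ end itself. Its fold enrichment was 16.7, 24.8 and 16.2 with CB-6644 and 22.1, 17.9 and 16.0 with DMSO, in replicate order, and the difference was 0.11 (95% interval -0.24 to 0.46). The MXD4 region, chr4:2262054-2262816, had folds of 16.4, 23.5 and 16.0 with CB-6644 and 21.4, 17.3 and 17.4 with DMSO, a difference of 0.07 (95% interval -0.28 to 0.42). At both genes the groups overlapped, and the short-fragment library of each group was the highest.

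MXI1, an antagonist of the same family, had 3 promoter regions with a peak in all 6 libraries, spread over alternative starts. The strongest, chr10:110210765-110211454, had folds of 10.8, 18.6 and 10.7 with CB-6644 and 15.8, 11.4 and 9.36 with DMSO, a difference of 0.22 (95% interval -0.35 to 0.78). The region at the 5′ end of the gene, chr10:110207441-110207744, differed by 0.42 ± 0.36 (SE; adjusted p = 0.616, limma), the largest promoter difference of the locus, and its fold of 14.3 in CB-6644 replicate 2 stood far above the 6.62 and 5.53 of the other CB-6644 libraries.

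MNT, which binds MAX in growing and resting cells alike and antagonizes MYC, also had 3 promoter regions in all 6 libraries. The strongest, chr17:2399510-2400131, lay 1.4 kb inside the gene and had folds of 11.3, 18.8 and 10.7 with CB-6644 and 17.1, 12.3 and 10.5 with DMSO, a difference of 0.12 (95% interval -0.43 to 0.67). MLX, the MAX-like partner of MLXIP and MLXIPL, had a single promoter region, chr17:42566794-42567904, with folds of 12.1, 16.8 and 13.3 with CB-6644 and 16.0, 13.8 and 12.9 with DMSO, a difference of 0.09 (95% interval -0.32 to 0.51). The groups overlapped at both genes.

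MGA, a very large protein that pairs with MAX and works within a noncanonical Polycomb complex, had its promoter region, chr15:41660168-41661034, 39.6 kb downstream of the annotated 5′ end, at internal starts. The folds were 15.5, 20.1 and 13.3 with CB-6644 and 21.5, 18.2 and 17 with DMSO. The difference of -0.13 (95% interval -0.51 to 0.25) was the lowest of the 9. The percentiles of the region were 80.7, 78.1 and 75.9 with CB-6644 and 84.8, 88.8 and 88.4 with DMSO and did not overlap.

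The promoters of MAX, MXD4, MNT and MLX, 4 of the 9 members, held the canonical E-box, CACGTG, close to the summit. The window searched was 100 bp on either side of the strongest summit of a region, the motif reads the same on both strands, and 4 of the 23 promoter regions of the 9 genes (17.4%) held it, against 6.8% of regions at protein-coding promoters and 4.5% of all merged regions. The matches outside annotated UTRs are shown, because they match the sequence that dimers of the network are known to read. Binding was not measured here. Each line gives 30 bases of the plus strand of hg38, with the E-box in capitals.
MXD4, chr4:2262330-2262359: gcttagcaacagCACGTGgtggcccggccc
MNT, chr17:2399717-2399746: gtgtccccggtgCACGTGgtcgggggcgga
MLX, chr17:42567038-42567067: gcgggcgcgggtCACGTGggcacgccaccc
In plus-strand coordinates the E-box of MNT began 18 bp and that of MLX 28 bp after the summit, and that of MXD4 lay before it. None of these 4 promoters was called changed. The promoter windows of MYC, PVT1, MXD1, MXI1 and MGA held no match, which says only that these letters were not within the window.

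Outside the promoters, one region in the loci of the 7 network genes was called, higher with CB-6644 and before MGA. This intergenic region, chr15:41583874-41584230, lay 37.2 kb before the 5′ end of MGA. Its fold enrichment was 18.6, 18.3 and 20.5 in CB-6644 replicates 1, 2 and 3 and 12, 9.14 and 9.87 in DMSO replicates 1, 2 and 3. Every CB-6644 library stood above every DMSO library, and the short-fragment library was the highest with DMSO and the lowest with CB-6644. The difference was 1.05 ± 0.17 (SE; 95% interval 0.66 to 1.43; adjusted p = 0.037, limma), and adjusted p was 0.00256 with the fragment-length set as a term. Over the genome 0.321% of the regions tested were called higher and 0.418% lower. Of the 45 regions with a peak in all 6 libraries in these 7 loci, this was the only one called. The call was lost when any library other than CB-6644 replicate 2 was left out, with differences from 0.97 to 1.09 and adjusted p up to 0.234, and without CB-6644 replicate 2 adjusted p was 0.00947. It was also lost with median centring (adjusted p = 0.0663, limma). With the fold of the peak nearest the centre of the region it was lost too (adjusted p = 0.0696, limma). It held within the 4 long-fragment libraries at 1.09 (adjusted p = 0.00902, limma). In each fit that lost the call, 0 regions of the genome were called higher, so the loss was not particular to this region.
The 121 bases around its strongest summit, on the plus strand of hg38, show the site, with the match to the MAF site TGCTGAC (here on the minus strand) in capitals.
MGA upstream region, chr15:41583904-41584024: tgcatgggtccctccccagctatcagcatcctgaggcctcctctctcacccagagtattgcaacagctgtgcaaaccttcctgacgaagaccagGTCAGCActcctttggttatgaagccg
The same site was found within 100 bp of the summit in 5.3% of all merged regions and in 9.7% of the 72 regions of these 7 loci.

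At MXD1 and MAX the data showed intronic and upstream sites that were weaker or not found with CB-6644. An intronic region of MXD1, chr2:69933388-69933763, had folds of 17.7, 10.8 and 14.7 with CB-6644 and 23.3, 26.3 and 21.5 with DMSO, with no overlap of the groups. The difference was -0.61 ± 0.19 (SE; adjusted p = 0.182, limma) and was called only with the fragment-length set as a term (adjusted p = 0.0116). A further intronic site, chr2:69927221-69927380, had a peak in all 3 DMSO libraries, at folds of 8.85, 12.8 and 10.8, and in no CB-6644 library. Its percentiles of 15.9, 29.8 and 22.3 place it among the weaker peaks of those lists. At MAX a site 32.2 kb before the gene, chr14:65134673-65135081, was likewise found only with DMSO, at folds of 8.85, 7.77 and 8.97 and percentiles of 15.9, 9.5 and 14.7. These were the 2 DMSO-only regions of the 7 loci, and 4.50% of all merged regions were DMSO-only against 0.586% that were CB-6644-only.
The 121 bases around their summits are given on the plus strand of hg38 because they are the sites that the peak caller no longer found with the inhibitor. Capitals mark a match to TGATGNAA, the composite site of ATF4 with a CEBP protein, read on the minus strand in MXD1, and a match to the E-box variant CAGGTG, read on the minus strand at MAX.
MXD1 intron, chr2:69927210-69927330: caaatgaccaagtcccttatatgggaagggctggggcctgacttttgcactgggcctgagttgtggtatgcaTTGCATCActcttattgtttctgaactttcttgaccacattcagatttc
MAX upstream region, chr14:65134831-65134951: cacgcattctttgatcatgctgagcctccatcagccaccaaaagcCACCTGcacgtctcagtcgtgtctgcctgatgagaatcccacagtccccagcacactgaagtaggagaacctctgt
Within 100 bp of the summit, TGATGNAA was found in 4.0% of all merged regions and in 12.7% of the 4016 DMSO-only regions of the genome, and CAGGTG in 27.7% and 22.4%.

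In the remaining loci the differences were small. The largest within 50 kb were 0.25 at MXD4, 0.42 at MXI1, 0.46 at MNT and 0.19 at MLX among those above 0, and -0.12 at MAX, -0.22 at MXD4, -0.09 at MXI1, -0.05 at MNT, -0.27 at MGA and -0.35 at MLX among those below 0, none of them called with or without the term. Over the 45 regions of the 7 loci with a peak in all libraries the median difference was 0.10, against 0.02 over all regions tested. The groups did not overlap at 5 regions (11.1%) that were higher and 3 (6.7%) that were lower, against 10.7% of all regions tested in the higher direction and 10.7% in the lower.

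MYC itself had an accessible promoter of modest strength. Its strongest promoter region, chr8:127735604-127736517, begins just inside the gene and overlaps its UTR. The fold enrichment was 7.01, 8.40 and 6.62 in CB-6644 replicates 1, 2 and 3 and 9.11, 9.17 and 8.13 in DMSO replicates 1, 2 and 3. The highest CB-6644 value, in the short-fragment library, lay above the lowest DMSO value. The difference was -0.11 ± 0.22 on the log2 scale (SE; 95% interval -0.60 to 0.38; adjusted p = 0.836, limma), and -0.11 with the fragment-length set as a term (adjusted p = 0.742). Within the 4 long-fragment libraries it was -0.32 (adjusted p = 0.273, limma). On the other measure the groups stood apart, with percentiles of 65.0, 55.2 and 63.0 for CB-6644 and 73.6, 83.3 and 82.1 for DMSO, and −log10 p of 63.8, 29.7 and 70.4 against 85.3, 168 and 145. When log2 of −log10 p was fitted in place of the fold, the difference was -0.73 and was not called (adjusted p = 0.113, limma).

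The other regions at MYC starts did not separate the groups. A region at the 5′ end, chr8:127735178-127735550, had folds of 6.88, 9.74 and 5.39 with CB-6644 and 7.94, 5.50 and 4.67 with DMSO, a difference of 0.41 ± 0.27 (SE; adjusted p = 0.522, limma). A weaker one, chr8:127737678-127738074, had folds of 2.54 to 4.51 over the 6 libraries and a difference of 0.00. The promoter of CASC11, the noncoding gene that runs in the opposite direction from beside MYC, lay 1.3 kb before MYC and differed by 0.34 ± 0.30 (SE; adjusted p = 0.625, limma).

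PVT1, a noncoding RNA gene that is often amplified or broken together with MYC, had 4 promoter regions in all 6 libraries. The region at its 5′ end, chr8:127794342-127795849, had folds of 13.3, 29.4 and 14.3 with CB-6644 and 22.2, 14.3 and 9.83 with DMSO, so the short-fragment library of each group was highest and the groups overlapped. The difference was 0.33 (95% interval -0.29 to 0.96; adjusted p = 0.61, limma). The strongest, chr8:127889884-127890435 at an internal start 95.7 kb into the gene, had folds of 25.7, 32.8 and 24.5 with CB-6644 and 31.6, 25.9 and 24.4 with DMSO. Its difference of 0.06 ± 0.09 (SE; adjusted p = 0.792, limma) had the narrowest 95% interval of the 9 strongest promoter regions, -0.14 to 0.26.

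The number of peaks in the 3 Mb around MYC overlapped between the groups. The interval held 75, 87 and 79 peaks in CB-6644 replicates 1, 2 and 3 and 94, 93 and 79 in DMSO replicates 1, 2 and 3. It averaged 80.3 ± 6.11 and 88.7 ± 8.39 peaks (SD over 3 libraries), and the difference of -8.33 was within the spread (two-sided exact test by permutation, p = 0.3, where 0.1 is the lowest that 6 libraries can give). Relative to the length of the list the sign turned, with 12.8 ± 0.69 and 12.3 ± 0.64 peaks per 10000, which differ by 0.40 (two-sided exact permutation, p = 0.5). Over 946 windows of 3 Mb, 11.9% had all CB-6644 libraries above all DMSO libraries on this scale and 20.0% below, and the MYC interval was in neither. Of its 118 regions, 56 (47.5%) had a peak in all 6 libraries, against 47.2% of all merged regions, and 22 had one in a single library.

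**Figure D2:**
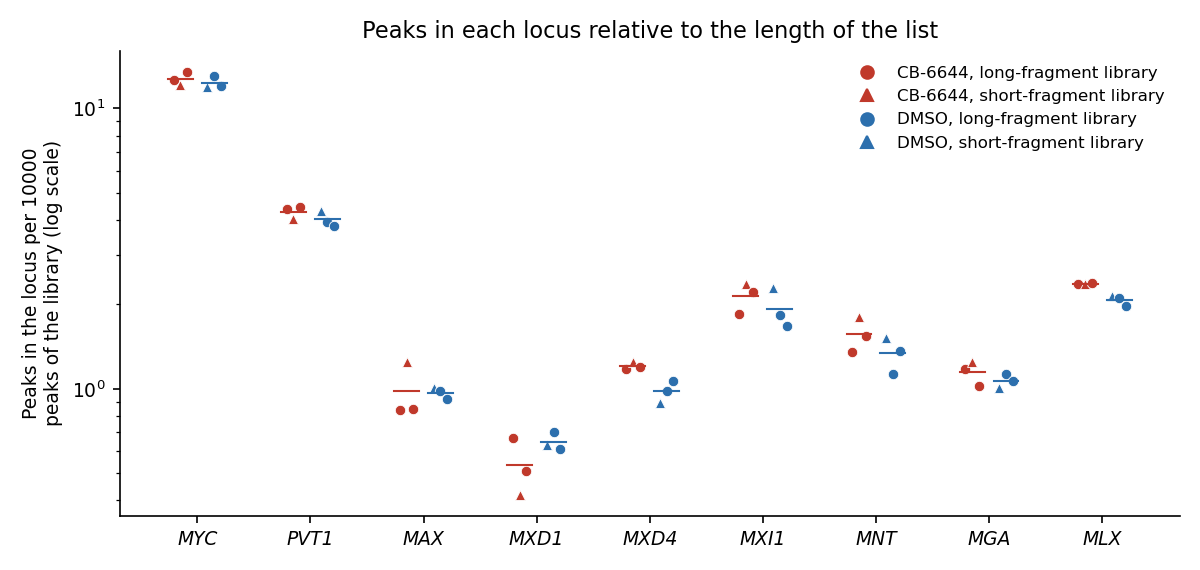
Peaks in each locus per 10000 peaks of the library, on a log axis, with one point per library, red for CB-6644 and blue for DMSO, triangles for the short-fragment libraries and a line at the mean of 3 libraries. The groups did not overlap at MXD4 and MLX, where every CB-6644 library stood above every DMSO library.

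By the same count MXD4 and MLX had more peaks per 10000 with CB-6644 than with DMSO in every library. MXD4 had 1.18, 1.25 and 1.20 against 0.89, 0.98 and 1.07, and MLX had 2.36, 2.37 and 2.39 against 2.15, 2.11 and 1.98 (two-sided exact permutation, p = 0.1 for each, the smallest possible). Before scaling, MXD4 had 7, 9 and 7 peaks against 7, 7 and 7, and MLX 14, 17 and 14 against 17, 15 and 13. The groups thus overlapped at both genes without the scaling, and the part of list length in the patterns was not tested. On the scaled count 15.8% of 19455 protein-coding genes were higher in this way against 5.99% lower.

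Of the 56 regions of the MYC interval with a peak in all 6 libraries, 1 was called, against 0.321% called higher and 0.418% lower over the genome. The called region was distal and lower with CB-6644. It lay 555.2 kb before MYC, at chr8:127180175-127180410, over an exon and a start of CASC19, a noncoding RNA gene of the colorectal cancer susceptibility region, and within the long span annotated for the noncoding gene PCAT1. Its fold enrichment was 10.7, 10.8 and 11.6 with CB-6644 and 28.3, 22.2 and 22 with DMSO. All 3 CB-6644 libraries lay close together and below all DMSO libraries. The difference was -1.01 ± 0.15 (SE; 95% interval -1.34 to -0.67; adjusted p = 0.032, limma) and adjusted p was 0.00198 with the fragment-length set as a term. The call was lost when any library other than CB-6644 replicate 2 was left out, with differences from -1.07 to -0.96 over the 6 omissions and adjusted p up to 0.219, and without CB-6644 replicate 2 adjusted p was 0.0065. It was also lost with median centring (adjusted p = 0.0642, limma). With the fold of the peak nearest the centre of the region it was lost too (adjusted p = 0.0638, limma). It held within the 4 long-fragment libraries at -0.93 (adjusted p = 0.00921, limma). The fits that lost the call called 0 regions of the genome lower, or 17 without CB-6644 replicate 1. The loss was thus not particular to this region.

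**Figure D3:**
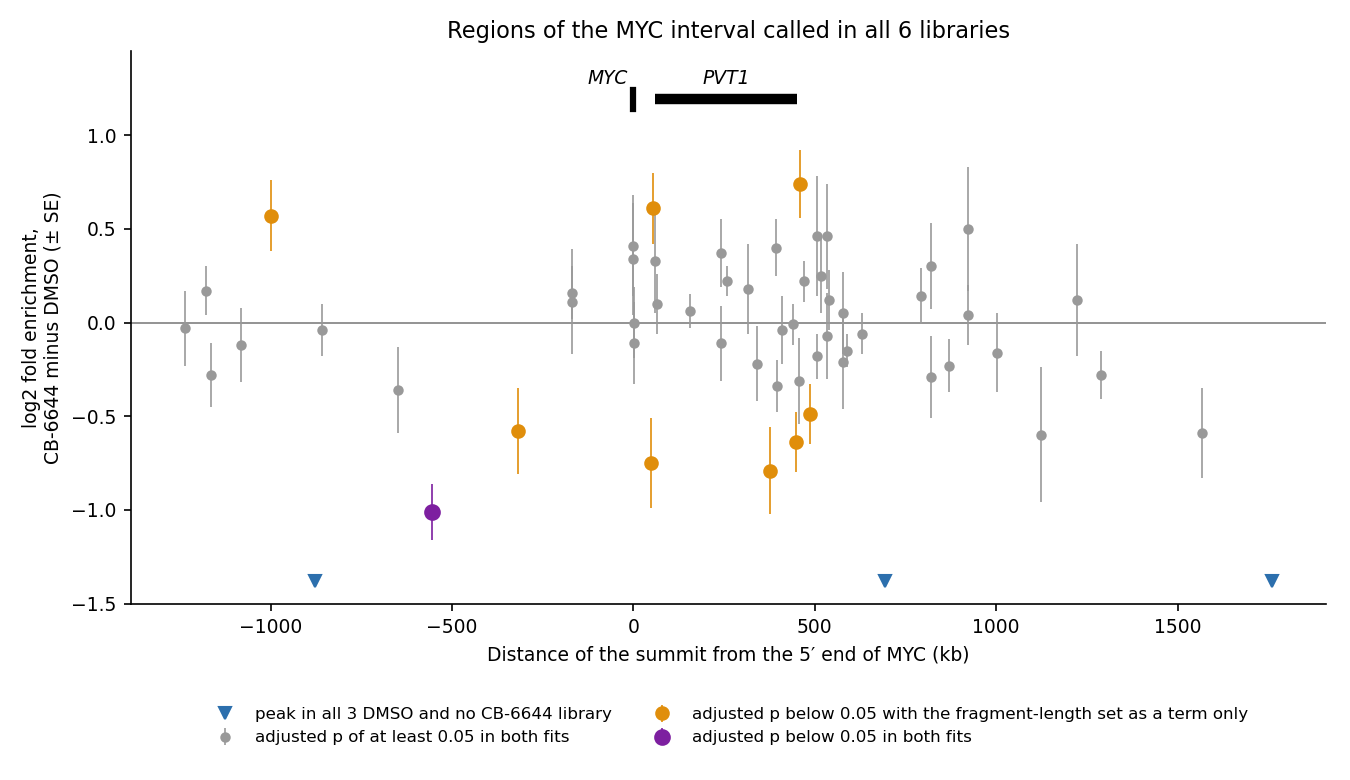
Difference in log2 fold enrichment, CB-6644 minus DMSO, with its standard error, at the 56 regions of the MYC interval with a peak in all 6 libraries, against the distance of the summit from the 5′ end of MYC in kb. Purple marks a region called in both fits, orange the 8 called only with the fragment-length set as a term, grey the others, and blue triangles the 3 DMSO-only regions, placed without a value. Regions above and below 0 stand side by side near MYC, around PVT1 and beyond it.

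With the fragment-length set as a term, 9 of the 56 regions of the interval with a peak in all 6 libraries were called, 3 higher (5.4%) and 6 lower (10.7%), of which the CASC19 region is one. Over the genome this fit called 4.22% higher and 6.10% lower. The other 8 were singled out after their values were seen. They included neighbours that moved in opposite directions. Between MYC and PVT1, a region 48.1 kb after the MYC start, chr8:127783426-127783740, had folds of 14.9, 7.45 and 10.6 with CB-6644 and 20.1, 19.0 and 19.7 with DMSO, a difference of -0.75 (adjusted p = 0.0222 with the term and 0.187 without, limma). The next region, 53.4 kb after the start at chr8:127788579-127789169, had 18.4, 14.7 and 20.9 against 14.5, 11.9 and 13.6, a difference of 0.61 (adjusted p = 0.0265 with the term and 0.17 without, limma). Neither pair of groups overlapped.

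The same was seen at the 3′ end of PVT1. Within the gene, 449.3 kb after the MYC start, the region chr8:128184588-128185059 had folds of 13.1, 11 and 16.2 with CB-6644 and 25.3, 21.9 and 21.8 with DMSO, a difference of -0.64 (adjusted p = 0.0104 with the term and 0.0958 without, limma). Just beyond the gene, at 458.5 kb, the region chr8:128193709-128194043 had 18.1, 15.8 and 19.8 against 15.2, 12.2 and 9.36, a difference of 0.74 (adjusted p = 0.0137 with the term and 0.0906 without, limma). A PVT1 intron at 376.7 kb, chr8:128111797-128112535, had 9.25, 6.61 and 7.90 against 14.4, 12.8 and 16.7, a difference of -0.79 (adjusted p = 0.0242 with the term and 0.151 without, limma). The PVT1 gene body thus held 2 of the regions that fell with the term, and its promoter regions none.

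The remaining 3 lay farther out. The region at the start of POU5F1B, a retrogene related to the pluripotency factor gene POU5F1, 318.9 kb before MYC, had folds of 27.3, 14.1 and 26.2 with CB-6644 and 39.0, 35.2 and 31.9 with DMSO, a difference of -0.58 (adjusted p = 0.0139 with the term and 0.285 without, limma). A region 487.0 kb after the start differed by -0.49 (adjusted p = 0.0356 with the term, limma), and one 999.2 kb before it by 0.57 (adjusted p = 0.031 with the term, limma). At the latter the folds were 20.6, 23.2 and 16.1 with CB-6644 and 19.7, 13.4 and 11.5 with DMSO, which overlap before normalization and not after it.

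**Figure D4:**
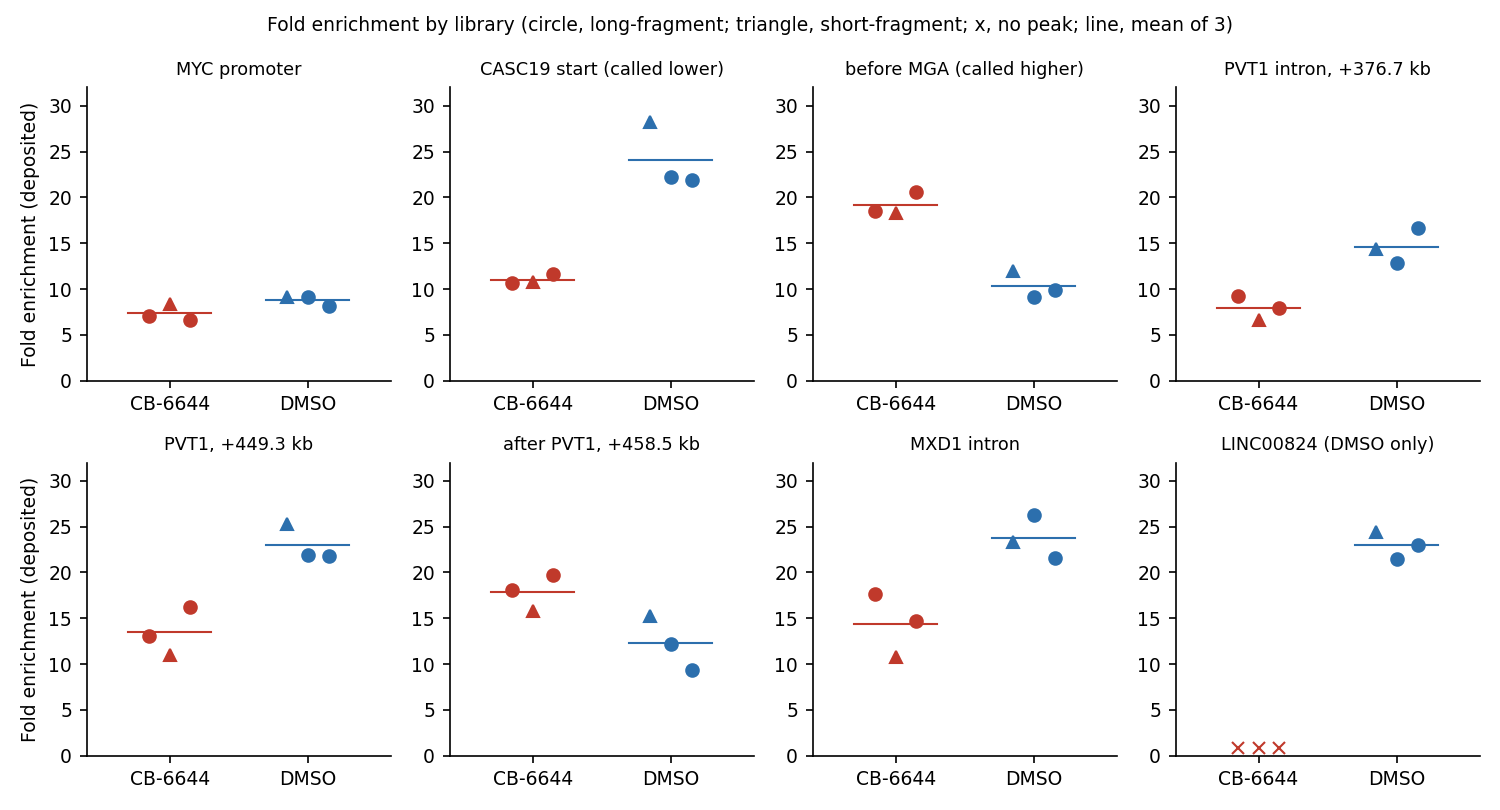
Deposited fold enrichment in each library, on an axis from 0, at the strongest MYC promoter region, the called regions at CASC19 and before MGA, 3 regions at PVT1 and the MXD1 intron that were called only with the fragment-length set as a term, and the DMSO-only region at LINC00824. Circles are long-fragment and triangles short-fragment libraries, crosses mark libraries without a peak, and lines are means of 3. Folds at the MYC promoter ran from 6.62 to 9.17 with overlapping groups, and the groups did not overlap in the panels of the 2 called regions.

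Some sites of the interval were found only with DMSO. LINC00824, a noncoding gene 692.9 kb after the MYC start, had at its start a region, chr8:128428096-128428587, with folds of 24.4, 21.5 and 23 and percentiles of 72.7, 72.9 and 79.9 in the DMSO libraries. A PCAT1 intron 878.1 kb before MYC, chr8:126857221-126857627, had folds of 24.5, 20.7 and 24.3 and percentiles of 64.1, 61.9 and 68.2. Both were in the upper part of every DMSO list and had no peak in any CB-6644 list. The third, in CCDC26 1760.1 kb after MYC, had folds of 5.05, 12.1 and 8.97 and was at the 0.5th percentile in DMSO replicate 1. These 3 of 118 regions (2.5%) were the DMSO-only ones, and no region of the 9 loci was CB-6644-only, against 4.50% and 0.586% of all merged regions. Both counts turn on single libraries. Over the 9 loci there were 5 DMSO-only regions, and 9 without CB-6644 replicate 1, 11 without DMSO replicate 1 and 10 without DMSO replicate 3. CB-6644-only regions numbered up to 3 when a library was left out, which was reached without CB-6644 replicate 1.

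None of the strongest peaks of the interval was called by fold enrichment. The 10 regions with the highest mean percentile included the promoter shared by LRATD2 and PCAT1 at the far end of the interval, with a difference of 0.17, the CASC11 and internal PVT1 promoters given above, a PVT1 intron 257.9 kb after the MYC start with 0.22, and 6 regions beyond PVT1, from 505.1 to 922.2 kb after the start, with -0.18, -0.07, 0.46, -0.15, -0.06 and 0.04. Their adjusted p was also at least 0.05 with the term. In the fit of log2 of −log10 p, the region 505.1 kb after the start was called lower, at -0.92 (adjusted p = 0.0432, limma). That fit called 3 higher and 5 lower of the 56 regions of the interval. Over the genome it called 1536 higher and 1696 lower of 42089. At the PVT1 intron the groups did not overlap after normalization, and adjusted p was 0.0675 with the term (limma). By percentile they separated the other way, at 98.2, 97.0 and 96.8 with CB-6644 and 98.7, 98.9 and 99.1 with DMSO.

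Taken over the interval, the differences lay on both sides of 0, with a median of -0.02 over the 56 regions. Of these, 27 were above 0 and 29 below. Over all regions tested the median was 0.02, with 22617 above 0 and 19472 below. Quantile normalization gives all libraries the same distribution, so a change shared by most regions of the genome would not show in either median. The groups did not overlap at 7 regions (12.5%) that were higher and 11 (19.6%) that were lower, against 10.7% of all regions tested in each direction. By percentile the groups did not overlap at 3 regions (5.36%) that were higher and 21 (37.5%) that were lower, against 5.61% and 24.6% of all regions tested. More than 10 kb before MYC the median was -0.04 over 11 regions. From 10 kb before MYC to PVT1 it was 0.33 over 7, with 5 above 0 and 2 below. In the PVT1 body it was 0.02 over 14, and after PVT1 -0.06 over 25. The region at the 5′ end of PVT1 was counted in both middle parts. The CACGTG E-box was found within 100 bp of the summit in 6 of the 118 regions (5.1%), which included the region 48.1 kb after the MYC start and the one 999.2 kb before it. The TGATGNAA site was found in 5 (4.2%), GAAANNGAA, a site read by IRF proteins, in 21 (17.8%) and CAGGTG in 43 (36.4%), against 4.0%, 13.7% and 27.7% of all merged regions. Both strands were searched for each, and none of these motifs contains another. Of the 5 DMSO-only regions of the 9 loci, 3 held TGATGNAA, against 12.7% of all DMSO-only regions of the genome.

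No promoter of the genes that work with the members was called, where 11 were called higher and 9 lower of 14596 regions at protein-coding promoters. Of 54 genes on lists of further network proteins, MXD corepressors, MGA partners, MYC cofactors and MYC targets, 51 had a promoter region with a peak in all 6 libraries with adjusted p from 0.236 to 0.984 (limma). The difference was above 0 at 42 and below 0 at 9. Most promoters leaned the same way, with 10130 of 14596 regions at protein-coding promoters above 0 and 4466 below. The median was 0.16 for 4 further network proteins, 0.12 for 6 corepressors and 0.11 for 10 MGA partners. It was 0.14 for 12 cofactors and 0.12 for 19 targets. Over the regions at all protein-coding promoters it was 0.08, where every such region counts and not only the strongest of each gene.

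**Figure D5:**
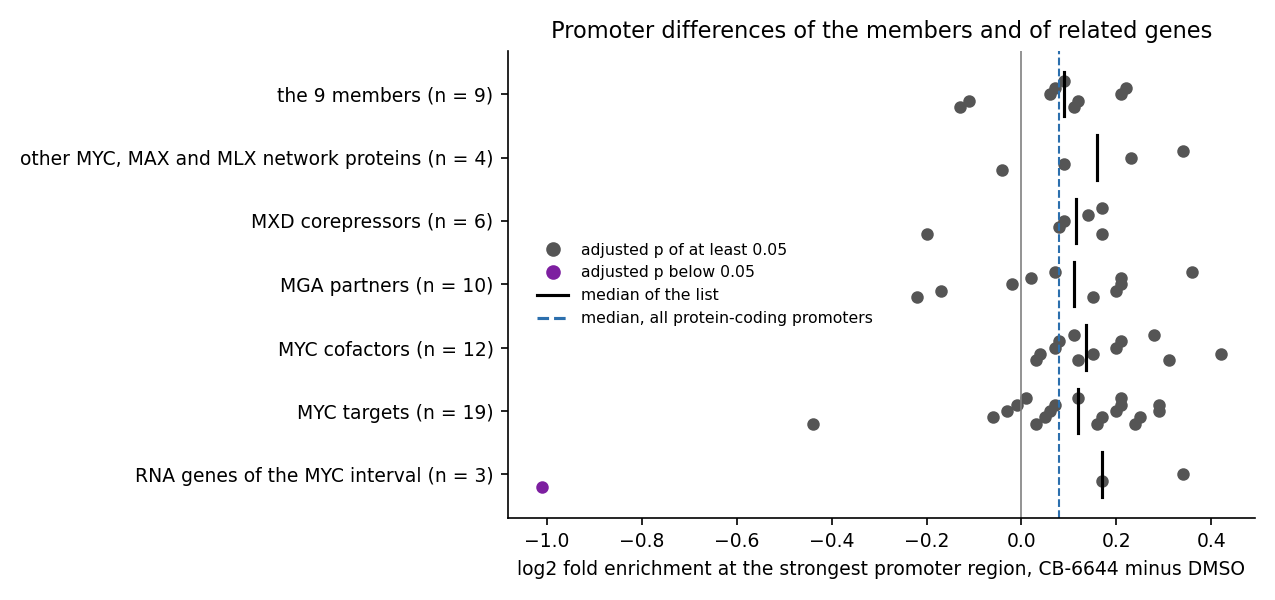
Difference in log2 fold enrichment, CB-6644 minus DMSO, at the strongest promoter region of each gene of each list that had a peak in all 6 libraries. Points are genes, purple where called and grey otherwise, black lines are list medians and the dashed line is the median over regions at protein-coding promoters, 0.08. The single called gene is CASC19 at -1.01.

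MLXIP, which pairs with MLX in the nutrient-sensing branch, had the largest difference of the further network proteins at 0.34 ± 0.20 (SE), and MYCL, a MYC paralog, was at -0.04. Among the corepressors SIN3B, a scaffold that MXD proteins recruit, was at -0.20 ± 0.12 (SE). RYBP and PCGF6, subunits of noncanonical Polycomb complexes, were at 0.36 and -0.22. TRRAP, the scaffold through which MYC recruits acetyltransferases, was at 0.42 ± 0.28 (SE), and the inhibitor's own targets RUVBL1 and RUVBL2 were at 0.03 and 0.12. Among the MYC targets SHMT2, a mitochondrial enzyme of one-carbon metabolism, was lowest at -0.44 ± 0.16 (SE; adjusted p = 0.236, limma), and EIF4E, the cap-binding translation factor, and LDHA, which makes lactate, were highest at 0.29. The groups did not overlap at SHMT2, where CB-6644 was lower, nor at EIF4E, RRS1 and FBXW7, where it was higher. Of 14596 regions at protein-coding promoters, 9.9% were higher in this way and 4.8% lower. Of all regions tested it was 10.7% in each direction. TERT had a promoter peak in 2 libraries and was not tested. Of 8 noncoding genes listed for the MYC interval, 6 were found in the annotation under these names, CASC8, CCAT2 and PRNCR1 had no promoter peak in any library, and CASC11, PCAT1 and CASC19 were tested, of which CASC19 was lower, as given above.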

How the data were processed

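Omni-ATAC of MM.1S was used, with 3 CB-6644 and 3 DMSO libraries grouped by the labels. The submitters' processing notes name hg38, Bowtie2 2.4.2 and MACS3 3.0, and the authors called peaks in each library. The deposited fold enrichment is the ratio of the summit's pile-up to the local background, not scaled between libraries. The deposited −log10 p and −log10 q values and the score belong to each peak. The score was not used. The authors tested read counts with edgeR, which peak lists do not allow. The lists hold no read totals.

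Peaks on 24 chromosomes were merged, none past a chromosome end, and a region took the highest fold of its peaks in a library. limma 3.58.1 (R 4.3.3) was fitted to log2 fold after quantile normalization, with intensity trend and Benjamini-Hochberg adjustment over all regions. On simulated data of 42089 regions it called 43 of 100 regions changed by log2 1 and 86 of 100 changed by log2 2, with 7 false calls. The simulated noise was independent between regions and libraries and held no split by fragment length, so these counts need not hold for the real libraries. Python 3.11.15, numpy 2.4.6, pandas 2.3.3, scipy 1.17.1 and matplotlib 3.10.9 were used. After centring within each group, same-numbered libraries correlated at -0.477, -0.332 and 0.326. The 2 short-fragment libraries, which differ in number, correlated at 0.572. Whether the replicate numbers stand for paired experiments cannot be told from these values, and the main fit did not pair the libraries.

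Members and lists were chosen with earlier results of these data known. All members were named. In the MYC interval the text names promoter regions, the 10 strongest regions, group-only and called regions and the 3 largest differences in each direction, in the other loci group-only and called regions and the largest differences, and per list at most 4 genes with the largest differences. RUVBL1, RUVBL2, TERT, RRS1, FBXW7 and the interval regions called only with the term were named beyond this rule, after their values were seen. A marker gene and a sequence are not reported here.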

Additional observations from a re-analysis of the deposited data

How the results depend on the processing

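The number of regions called over the genome depended on most settings, while no promoter of the 9 genes was called under the 16 alternatives that give a promoter difference (15 for MYC and MLX). Against 135 higher and 176 lower, limma called 1777 and 2566 with the fragment-length set as a term, 1439 and 2073 in the 4 long-fragment libraries, 1536 and 1696 with log2 of −log10 p, 70 and 108 with equal numbers of top peaks, and 0 and 0 with median centring (2426 and 2760 at an unadjusted p under 0.05), the nearest summit (2501 and 3055), the 20000 top peaks (515 and 611) or the replicate block (1858 and 2875). Leaving out 1 library gave 0 to 764 higher and 0 to 1130 lower. With the replicate block the paired fit left the regions at CASC19 and before MGA at -1.01 and 1.05 and called neither (adjusted p = 0.112 for each, limma). Whether the replicate numbers pair the libraries is not known. The paired exact test of peaks in the MYC interval gave the same difference of -8.33, and 3 pairs cannot reach p below 0.25.

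Small promoter differences turned sign with log2 of −log10 p at PVT1 (-0.04), MXD1 (-0.24), MXD4 (-0.17), MXI1 (-0.05) and MNT (-0.02), with the 20000 top peaks at MXD1 (-0.01), MXD4 (-0.07) and MNT (-0.07), and in the long-fragment libraries at MXD4 (-0.03) and MLX (-0.01). Over the 6 omissions of a library they ran from -0.04 to 0.16 at MXD4, -0.09 to 0.29 at MNT, -0.02 to 0.2 at MLX and -0.23 to 0.01 at MGA. Over the 6 omissions MYC ran from -0.27 to 0. Over all 15 alternatives it kept its sign or reached 0, and was lowest at -0.73 with log2 of −log10 p. The difference in peaks of the MYC interval was 1 with equal numbers of top peaks and, per 10000, -0.67 with the 20000 top peaks. At these, neither MYC nor MLX had a promoter region in all 6 libraries, so their difference was not computed, and the other 7 of 9 genes had a promoter peak in all 6. When only the 5′ end of the gene counted, 7 genes had one, all but MXD1 and MGA.

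CB-6644-only regions, 0 in the loci, numbered 2 with equal numbers of top peaks, 3 in the long-fragment libraries, 5 with 2 of 3 libraries (4 in the MYC interval) and 2 with a flank of 100 kb, and 0 to 3 when a library was left out. DMSO-only regions, 5 in the loci and 3 in the MYC interval, numbered 2 with equal numbers of top peaks, 1 and 1 with the 20000 top peaks, 11 and 8 in the long-fragment libraries, 17 and 11 with 2 of 3 libraries, and 5 to 11 and 3 to 8 when a library was left out. The rule is looser with 2 of 3 libraries, in the 4 long-fragment libraries and when a library is left out, so counts can hardly fall there. The causes of the other changes were not tested. Read depth is unknown, so a site missing from a list may have been missed.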
